A study of Arabidopsis thaliana with 16 samples.

Results

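The GH3 family of Arabidopsis thaliana encodes acyl-amido synthetases, enzymes that activate a small acid with ATP and join it to an amino acid. Those that act on the plant hormone auxin (indole-3-acetic acid, IAA) turn the free hormone into amino acid conjugates, some of which are stored and some degraded, and several of their genes are among the classic early targets of auxin signalling. Other members act on other acids: JAR1 joins jasmonate to isoleucine, which gives the active form of that hormone, and PBS3 acts in the synthesis of salicylate.

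The set held 10 listed genes of this family, matched by symbol or locus code to the array's annotation, and a gene was kept where a probe set named it alone. By this rule 7 of the 10 were kept, among 13356 genes with such a probe set in the whole data set, and each had 1 probe set. These were GH3.1 (AT2G14960), GH3.3 (AT2G23170), WES1 (AT4G27260, also called GH3.5), AT5G51470, AT1G48690, AT1G48670 and AT1G23160. The only probe set of AT5G13370 is shared with its neighbour AT5G13360 and was not used. DFL2 (AT4G03400, also called GH3-10) and PBS3 (AT5G13320, also called GH3.12) have no named probe set here and were not analysed, and the same holds for JAR1. The set is labelled as auxin and jasmonate conjugating, but JAR1, the jasmonate enzyme named above, was not analysed. The values cover GH3.1, GH3.3 and WES1, whose enzymes join auxin to amino acids, and 4 loci that the annotation names by locus code only. AT1G48670 lies between AT1G48660, a further GH3 gene, and AT1G48690 in the RefSeq gene order (TAIR10.1).

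Seedlings of the Columbia background were grown for 14 days in 16 h light and 8 h dark. They were either wild type or from a line that overexpresses the rice gene OsGRX8, which encodes a glutaredoxin, a small enzyme that reduces or forms disulfide bonds. For 3 h they stood in water, 100 µM IAA, 200 mM NaCl or 25 µM methyl viologen (MV, a herbicide that diverts electrons from photosystem I to oxygen and so yields superoxide). Each of the 8 groups had 2 Affymetrix ATH1 arrays, called biological replicates in the design text, and p-values measure the spread between these pairs pooled over the groups. In the sources used here, neither the promoter of the transgene nor the number of transformants behind the line is given.

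Values are log2 signals from RMA, and levels of different genes cannot be set against each other because each probe set binds its target with its own strength. As a mark of the background, the trp control probe sets, for which no transcript was expected, reached at most 0.911 to 1.21 on each array. Replicate arrays correlated at 0.966 to 0.994. Both IAA arrays numbered 2 stood apart in RNA quality: for the actin control, the 3′ minus 5′ gap in signal was 6.10 (wild type) and 4.43 (OsGRX8 line), against 2.57 on wild type IAA replicate 1 and 1.13 to 1.85 on the other 13 arrays. The leaf marker RCA (Rubisco activase, 10.2 to 11.6) and the root marker PYK10 (8.62 to 9.69) were high on every array, while the flower marker AMS and the seed marker OLEO3 lay within 1 of the trp controls on all 16 arrays. Measured markers were 1 of 6 for leaf, 3 of 6 for root, 1 of 4 for flower and 1 of 4 for seed. Besides PYK10, the root markers were EXPA7 and EXPA18, within 1 of the trp controls on 10 and 12 of 16 arrays.

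The members fell into a well detected pair and a group near the background. GH3.3 ranged over the arrays from 5.35 to 10.46 and WES1 from 4.83 to 7.79, both at least 3.78 above the trp controls everywhere. GH3.1 lay between 0.97 and 2.95 and was within 1 of the trp controls on 12 of 16 arrays, and AT5G51470 (1.27 to 3.38) was so on 12 and AT1G48690 (1.04 to 2.98) on 13. AT1G48670 (0.95 to 1.49) and AT1G23160 (0.79 to 1.30) never left that range, and AT1G23160 was at or under the trp controls on 7 arrays. For the 5 weak members, changes on the log2 scale may understate the change in RNA.

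**Figure D1:**
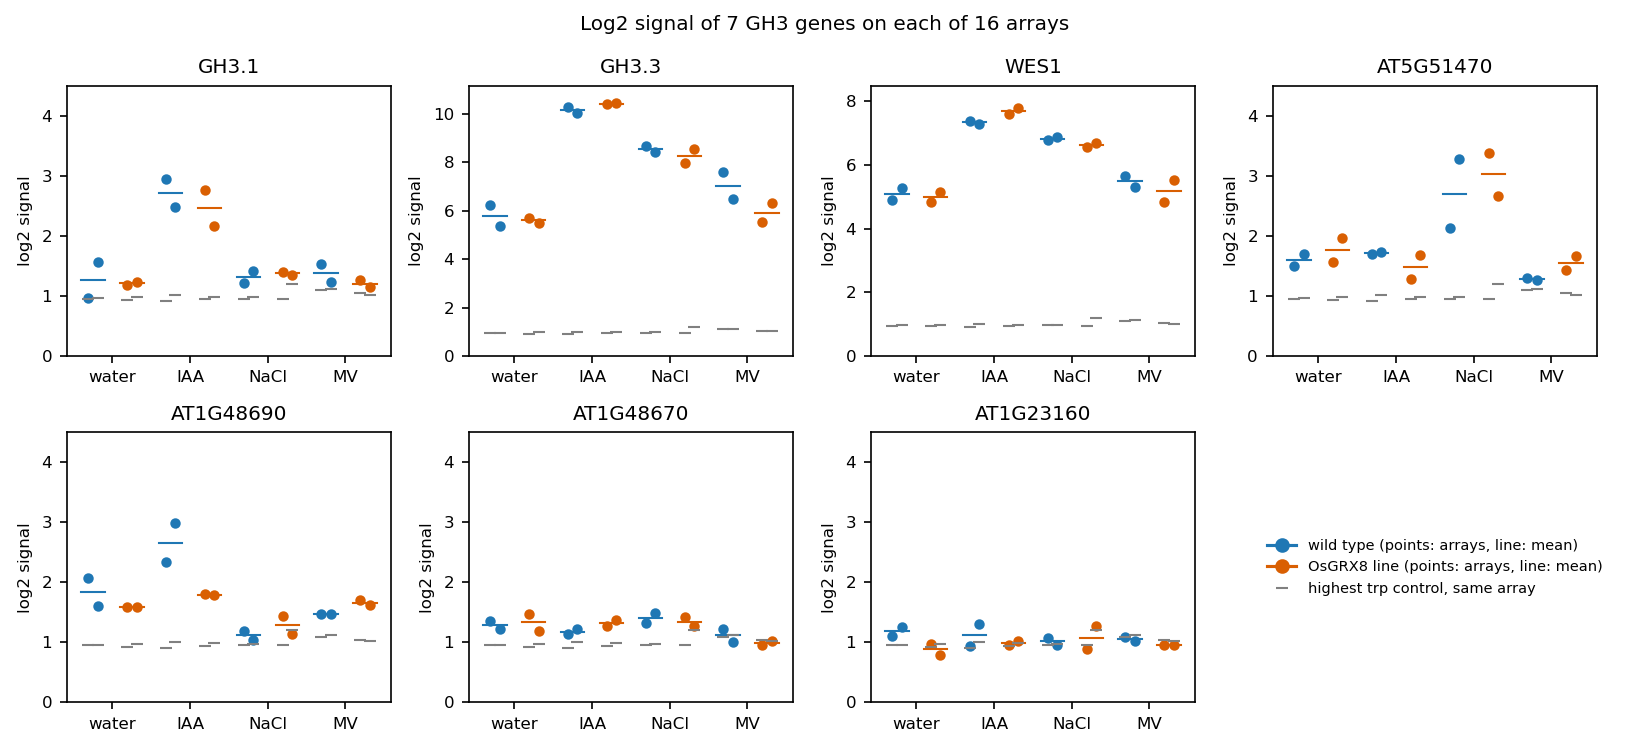
Log2 RMA signal (vertical axis) of the 7 GH3 genes by treatment (horizontal axis) in the wild type (blue) and the OsGRX8 line (orange); points are arrays, lines are means of 2 arrays, and grey dashes are the highest trp control of the same array. GH3.3 and WES1 stand highest under IAA, then NaCl, while GH3.1 stands out under IAA and AT5G51470 under NaCl.

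After 3 h of IAA, 3 of the 7 GH3 genes rose over the mean of both lines (adjusted p under 0.05, limma, adjusted over all 22746 probe sets tested), against 0.620% of all probe sets called in either direction and 0.510% called higher. They were GH3.3, WES1 and GH3.1, all of which encode enzymes that join auxin to amino acids. The median change of the 7 members was 0.52, against 0.02 over all probe sets. That median is the value of AT1G48690, which did not pass the test, so it does not show a rise across the family. The members were chosen with earlier results of these data known, so their counts against all probe sets do not test the family. Of 5 other GH3 genes measured, 0 passed under IAA over both lines. In these whole-seedling samples, more cells with a transcript and more transcript per cell cannot be told apart.

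In the wild type, GH3.3 read 6.25 and 5.35 on the water arrays and 10.28 and 10.04 on the IAA arrays. In the OsGRX8 line it read 5.71 and 5.49 in water and 10.40 and 10.46 in IAA. The 4 IAA arrays all lay far above the 4 water arrays. The change over both lines was 4.59 ± 0.27 on the log2 scale (SE, 24.1-fold, adjusted p = 3.46e-06, limma), the second largest increase, rank 2, among all 22746 probe sets. Within the lines GH3.3 rose by 4.36 ± 0.38 (adjusted p = 0.000421, limma) in the wild type and by 4.83 ± 0.38 (adjusted p = 8.82e-05, limma) in the OsGRX8 line.

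WES1, whose enzyme acts on auxin and also on salicylate in vitro, read 4.90 and 5.27 in water and 7.39 and 7.30 in IAA in the wild type. In the OsGRX8 line it read 4.85 and 5.16 in water and 7.59 and 7.79 in IAA. Again no IAA array reached down to a water array, and the gene rose by 2.47 ± 0.16 over both lines (5.55-fold, adjusted p = 5.59e-06, limma), which was rank 16 among all increases. Its changes were 2.26 ± 0.22 in the wild type (adjusted p = 0.00076, limma) and 2.68 ± 0.22 in the OsGRX8 line (adjusted p = 0.000114, limma).

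In the wild type, GH3.1 read 0.97 and 1.56 in water and 2.95 and 2.49 in IAA. The OsGRX8 line gave 1.19 and 1.24 in water and 2.77 and 2.17 in IAA. In water it lay close to the trp controls, and under IAA all 4 arrays stood clear of them. It rose by 1.36 ± 0.17 over both lines (2.56-fold, adjusted p = 0.00165, limma), a call held under 22 of 23 alternatives and lost on the compared arrays only (adjusted p = 0.0526). Within a single line the gene sat at the edge of the test, at 1.46 ± 0.24 in the wild type (adjusted p = 0.0354, limma) and 1.26 ± 0.24 in the OsGRX8 line (adjusted p = 0.0717, limma). The OsGRX8 change passed with median centring (adjusted p = 0.0469, limma), an intensity trend (0.0292) and array weights (0.0226). It did not pass with the replicate number as a block (adjusted p = 0.0894, limma). The wild type call held under 8 of the 23 alternatives run for it, with adjusted p between 0.0122 and 0.864 (limma), and the difference between the lines in this response was -0.20 ± 0.34, which did not pass the test.

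The other 4 members did not pass the test under IAA over both lines. AT1G48690 came nearest, at 0.52 ± 0.15 (adjusted p = 0.197, limma). Its wild type IAA arrays read 2.34 and 2.98, above the 2.07 and 1.60 of wild type water, while in the OsGRX8 line IAA gave 1.81 and 1.78 against 1.59 and 1.60. The higher wild type value comes from IAA replicate 2, the array with the largest actin 3′ to 5′ gap. With wild type IAA replicate 1 left out, so that only that array stands for the group, AT1G48690 passed the test over both lines (0.68, adjusted p = 0.00881, limma), in the wild type (1.15, adjusted p = 0.00513) and between the lines under IAA (-1.19, adjusted p = 0.00922), a fit in which the calls over all probe sets in the wild type also went from 47 to 3372. AT5G51470, AT1G48670 and AT1G23160 changed by -0.09, -0.06 and 0.02, less than their SE of 0.23, 0.11 and 0.12.

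With both IAA arrays numbered 2 left out, 1 IAA array stood for each line, so no spread between IAA arrays enters that fit. The IAA increases over both lines were then 4.64 for GH3.3, 2.45 for WES1 and 1.62 for GH3.1, close to or above the values on all arrays. AT1G48690 stood at 0.36 without them. In the wild type alone 3 of 7 members passed the test, all higher, against 0.207% of all probe sets called (0.193% higher). In the OsGRX8 line 2 of 7 did in that same fit, both higher, against 0.215% called (0.207% higher). When the wild type fit held only its own 4 arrays, none of the 3 wild type calls remained (adjusted p = 0.389 for GH3.3 and WES1 and 0.864 for GH3.1, limma), although the changes themselves are the same in that fit. The same fit on the 4 arrays of the OsGRX8 line kept GH3.3 and WES1. The wild type IAA pair differed most of all pairs, its SD between replicates being 0.418 (log2, all probe sets) against 0.176 to 0.272 in the other groups, and its part in the lost calls was not tested.

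**Figure D2:**
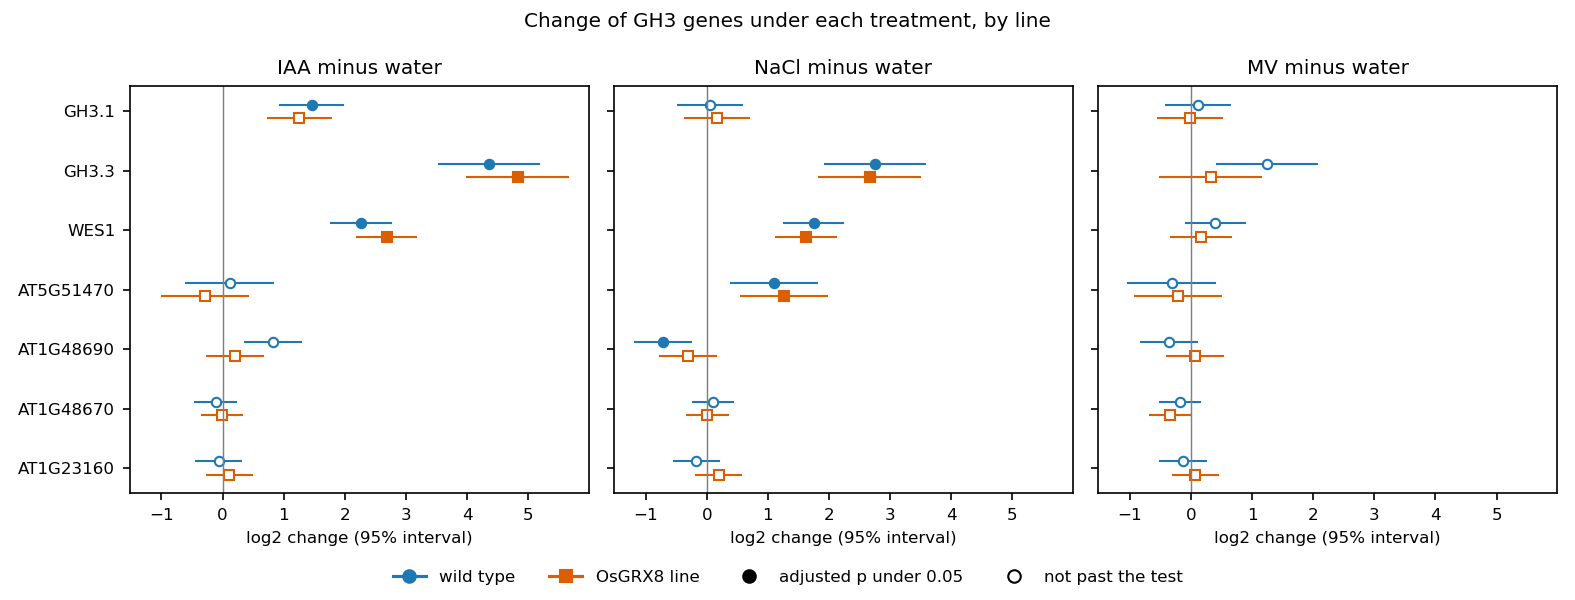
Log2 change against water with 95% confidence intervals (horizontal axis) for each GH3 gene under IAA, NaCl and MV in the wild type (blue circles) and the OsGRX8 line (orange squares); filled symbols passed the test at an adjusted p under 0.05. GH3.3 and WES1 are filled in both lines under IAA and NaCl, AT5G51470 in both under NaCl, and no symbol is filled under MV. In the wild type only, GH3.1 is filled under IAA and AT1G48690 under NaCl.

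Salt also raised GH3.3 and WES1, and it moved members that IAA did not. Over both lines 4 of the 7 members passed the test under NaCl, with GH3.3, WES1 and AT5G51470 higher and AT1G48690 lower. NaCl changed much of the array, with 25.5% of all probe sets called, 13.3% higher and 12.3% lower, and the count of members is to be read against that share. The median change of the members was 0.11, against 0.00 over all probe sets.

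GH3.3 read 8.69 and 8.41 on the wild type arrays and 7.96 and 8.57 on those of the OsGRX8 line under NaCl. All 4 arrays lay above every water array and below every IAA array. The increase over water was 2.71 ± 0.27 (6.53-fold, adjusted p = 9.39e-06, limma), with 2.75 ± 0.38 in the wild type and 2.66 ± 0.38 in the OsGRX8 line. WES1 read 6.79 and 6.88 on the wild type arrays and 6.56 and 6.70 on those of the OsGRX8 line, between its water and IAA arrays in the same way. It rose by 1.68 ± 0.16 (3.21-fold, adjusted p = 6.5e-06, limma).

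GH3.1 did not follow them. Under NaCl it read 1.22 and 1.41 on the wild type arrays and 1.40 and 1.35 on those of the OsGRX8 line, inside the range of its water arrays. The change was 0.11 ± 0.17, with a 95% confidence interval from -0.26 to 0.48 (adjusted p = 0.734, limma).

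AT5G51470, a GH3 locus with no symbol in the annotation, was the member whose only increase past the test was under NaCl. In the wild type it read 1.50 and 1.69 in water and 2.13 and 3.29 in NaCl. The OsGRX8 line gave 1.56 and 1.97 in water and 3.38 and 2.67 in NaCl. The 4 NaCl arrays lay above the 12 others, although the wild type pair was far apart. The gene rose by 1.18 ± 0.23 over both lines (2.27-fold, adjusted p = 0.00186, limma), a call kept under all 23 alternatives run for it. In the wild type the change of 1.11 ± 0.32 (adjusted p = 0.0381, limma) fell to 0.53 (adjusted p = 0.391) without NaCl replicate 2, and the adjusted p was 0.198 and 0.108 without water replicate 1 or 2. In the OsGRX8 line the change of 1.26 ± 0.32 (adjusted p = 0.0181, limma) lost its call without NaCl replicate 1 (0.91, adjusted p = 0.164) or water replicate 1 (1.06, adjusted p = 0.149).

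AT1G48690 read 1.20 and 1.04 on the wild type arrays and 1.43 and 1.15 on those of the OsGRX8 line under NaCl, below each line's own water arrays and close to the trp controls. It fell by 0.51 on the log2 scale over both lines (SE 0.15, adjusted p = 0.0226, limma), and by 0.72 in the wild type (SE 0.21, adjusted p = 0.0378, limma). The wild type call held under 11 of 23 alternatives, with adjusted p up to 0.323 (limma). The call over both lines was lost when any of 5 arrays was left out, with adjusted p from 0.0609 to 0.109 (limma): wild type water replicate 1, wild type NaCl replicate 2, OsGRX8 water replicate 1 or 2, or OsGRX8 NaCl replicate 2. In the OsGRX8 line alone the change was -0.30 ± 0.21 and did not pass the test (adjusted p = 0.423, limma). AT1G48670 and AT1G23160 changed by 0.06 ± 0.11 and 0.01 ± 0.12 over both lines.

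Within the wild type 4 of 7 members passed the test under NaCl, against 14.1% of all probe sets (7.61% higher and 6.51% lower). Within the OsGRX8 line 3 of 7 did, all higher, against 15.7% (7.94% higher). The root hair marker EXPA7, within 1 of the trp controls on 10 of 16 arrays, fell by 0.64 under NaCl (SE 0.13, adjusted p = 0.00298, limma). It was 1 of 3 measured root markers to pass. The log2 of their summed signal was 9.17 to 9.60 in NaCl against 9.29 to 9.71 in water. That sum is almost wholly PYK10 (8.62 to 9.69 over all arrays), so it cannot show a change in EXPA7. Whether a shift in root hair cells had a part in the GH3 values was not tested.

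MV moved none of the 7 members past the test over both lines or in either line, while 7.48% of all probe sets passed over both lines, 4.33% in the wild type and 1.46% in the OsGRX8 line. At an unadjusted p under 0.05, 2 of 7 members differed over both lines, GH3.3 and AT1G48670, where 19.0% of all probe sets did. The median change of the members was -0.03, against -0.02 over all probe sets.

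GH3.3 read 7.59 and 6.49 in the wild type under MV, above both wild type water arrays, and 5.52 and 6.34 in the OsGRX8 line, which overlapped its water arrays. The change was 0.78 ± 0.27 over both lines (adjusted p = 0.11, limma), 1.24 ± 0.38 in the wild type (adjusted p = 0.0992) and 0.32 ± 0.38 in the OsGRX8 line (adjusted p = 0.939). Without wild type MV replicate 2, the lower of the pair, it passed in the wild type (1.79, adjusted p = 0.0307, limma) and over both lines (1.06, adjusted p = 0.0281). WES1 read 5.66 and 5.31 on the wild type arrays and 4.83 and 5.52 on those of the OsGRX8 line, and its change of 0.28 ± 0.16 had a 95% confidence interval from -0.06 to 0.63. AT1G48670 changed by -0.26 ± 0.11 (adjusted p = 0.193, limma) between levels within 1 of the trp controls. GH3.1 stood at 0.05 ± 0.17, AT5G51470 at -0.26 ± 0.23, AT1G48690 at -0.14 ± 0.15 and AT1G23160 at -0.03 ± 0.12.

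The treatments were also set against each other, which compares treated arrays directly; the 3 comparisons with water share the same water arrays. Under IAA, 4 members were higher than under NaCl and 1 was lower, against 30.0% of all probe sets called (14.8% higher and 15.2% lower). GH3.3 exceeded its NaCl level by 1.88 ± 0.27 (3.69-fold, adjusted p = 0.000167, limma), WES1 by 0.79 ± 0.16 (1.73-fold, adjusted p = 0.00215) and GH3.1 by 1.25 ± 0.17 (2.37-fold, adjusted p = 0.000121). AT1G48690, with a higher mean than in water under IAA and a lower one under NaCl, differed between the treatments by 1.03 ± 0.15 (adjusted p = 0.000196, limma), and AT5G51470 differed the other way, by -1.27 ± 0.23 (adjusted p = 0.00101). These 5 calls were kept under every alternative in which the gene was tested, 24 for GH3.3 and WES1 and 23 for the others. RCA, the leaf marker measured of 6 listed, was also lower under IAA than under NaCl, by -0.68 ± 0.20 (adjusted p = 0.0186, limma), with 10.2 to 11.3 on the IAA arrays and 11.5 to 11.6 on the NaCl arrays. With both IAA arrays numbered 2 left out, and so 1 IAA array per line, its difference was -0.28. Its part in the GH3 differences was not tested. Without those arrays the GH3 differences were 1.93 for GH3.3, 0.76 for WES1, 1.51 for GH3.1, 0.87 for AT1G48690 and -1.38 for AT5G51470.

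Against MV, IAA left 4 of 7 members higher, against 9.43% of all probe sets called (4.83% higher). The differences were 3.81 ± 0.27 for GH3.3 (adjusted p = 2.72e-06, limma), 2.19 ± 0.16 for WES1 (adjusted p = 3.51e-06), 1.30 ± 0.17 for GH3.1 (adjusted p = 0.000345) and 0.66 ± 0.15 for AT1G48690 (adjusted p = 0.0138). The last was lost under 3 of 23 alternatives: with both IAA arrays numbered 2 left out (0.51, adjusted p = 0.0711, limma), without OsGRX8 MV replicate 2 (0.64, adjusted p = 0.0544) and on the compared arrays only (adjusted p = 0.0624).

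MV against NaCl left 4 of 7 members lower, against 30.2% of all probe sets called (16.2% lower). GH3.3 differed by -1.92 ± 0.27 (adjusted p = 0.000114, limma), WES1 by -1.40 ± 0.16 (adjusted p = 2.1e-05) and AT5G51470 by -1.45 ± 0.23 (adjusted p = 0.000327). AT1G48670 differed by -0.32 ± 0.11 (adjusted p = 0.0377, limma), all near the trp controls, and this call held under 16 of 23 alternatives, with adjusted p up to 0.133. AT1G23160 passed in none of these comparisons.

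**Figure D3:**
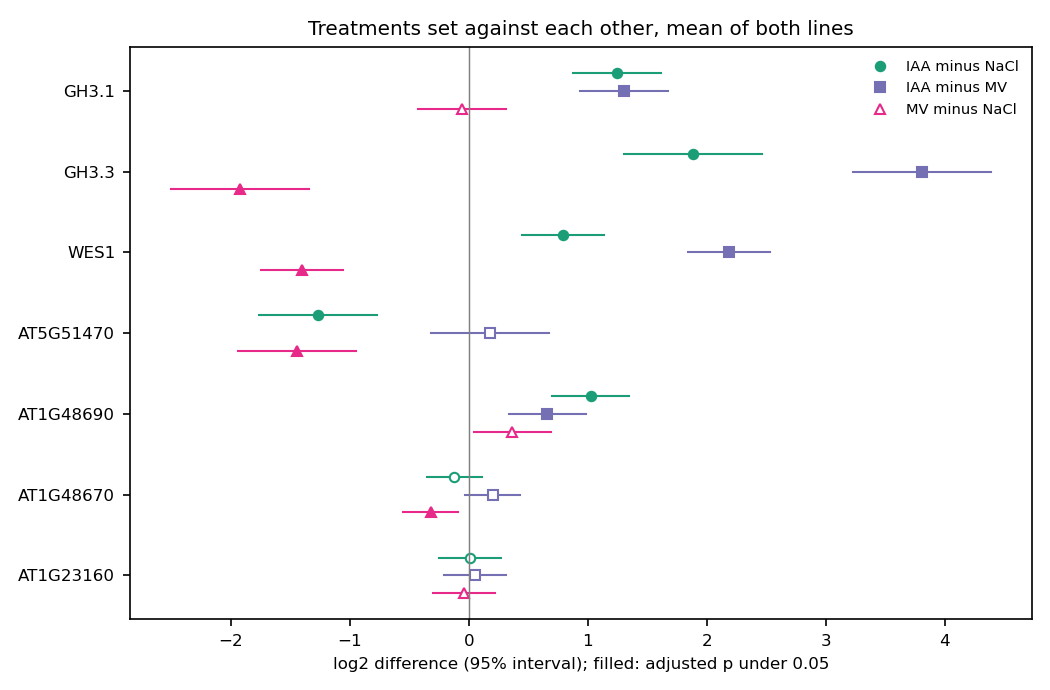
Log2 difference between treatments over the mean of both lines with 95% confidence intervals (horizontal axis) for each GH3 gene, as IAA minus NaCl (circles), IAA minus MV (squares) and MV minus NaCl (triangles); filled symbols passed the test. GH3.3 and WES1 are filled in all 3, GH3.1 and AT1G48690 in both differences that involve IAA, AT5G51470 in both that involve NaCl, and AT1G48670 in MV minus NaCl.

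Ordered by group mean, GH3.3 ran from 10.43 ± 0.04 (SD, n = 2) in the OsGRX8 line under IAA and 10.16 ± 0.17 in the wild type under IAA, through 8.55 ± 0.19 and 8.27 ± 0.43 under NaCl in the wild type and the OsGRX8 line, to 7.04 ± 0.78 and 5.93 ± 0.58 under MV and 5.80 ± 0.63 and 5.60 ± 0.15 in water. Neighbours in this order whose arrays overlapped were the NaCl groups of both lines, OsGRX8 MV with wild type water, and the water groups of both lines. WES1 had the same order of groups, from 7.69 ± 0.14 under IAA in the OsGRX8 line to 5.01 ± 0.22 in water in that line, and its 4 lowest groups overlapped from each to the next. For GH3.1 only the IAA groups, at 2.72 ± 0.33 and 2.47 ± 0.43, stood apart from the other 6, which lay between 1.20 and 1.38. For AT5G51470 only the NaCl groups, at 3.02 ± 0.50 and 2.71 ± 0.82, stood apart from the rest, at 1.28 to 1.76.

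Whether OsGRX8 overexpression changed these genes was asked in each condition. No member passed the test between the lines in water, IAA, NaCl or MV or over the mean of all conditions, and 0% of all probe sets passed in any of these comparisons. With wild type IAA replicate 1 left out, 1922 probe sets passed under IAA, and under MV up to 9 passed, with median centring. The smallest adjusted p over all probe sets lay between 0.119 (MV) and 1 (water) (limma). At an unadjusted p under 0.05, 0 of 7 members differed in water, 1 in IAA (AT1G48690), 0 in NaCl, 1 in MV (GH3.3) and 0 over the mean of the conditions. The shares of all probe sets at that threshold were 1.12% in water, 7.32% in IAA, 4.48% in NaCl, 5.33% in MV and 5.85% over the mean.

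Under MV, the OsGRX8 line minus wild type difference of GH3.3 was -1.11 ± 0.38, with a 95% confidence interval from -1.93 to -0.29 (adjusted p = 0.772, limma). Both OsGRX8 arrays, at 5.52 and 6.34, lay below both wild type arrays, at 7.59 and 6.49, although the nearest of them almost met. Under IAA, AT1G48690 differed by -0.87 ± 0.21 (adjusted p = 0.584, limma), and its dependence on a single wild type array is given above. Over the mean of all conditions the line differences of the 7 members ran from -0.33 ± 0.19 for GH3.3 to 0.13 ± 0.16 for AT5G51470. For WES1 it was -0.07, with an interval from -0.31 to 0.18, and for GH3.1 -0.10, with an interval from -0.37 to 0.16.

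The responses of the lines were compared by the difference of their changes. None of the 7 members passed this test for IAA, NaCl or MV, and 0% of all probe sets passed. At an unadjusted p under 0.05, 0 of 7 members differed for each treatment, where 2.84% (IAA), 2.16% (NaCl) and 2.20% (MV) of all probe sets did. With wild type IAA replicate 1 left out, 133 probe sets passed for IAA, none of them a member. For GH3.3 the response in the OsGRX8 line minus that in the wild type was 0.47 ± 0.54 for IAA, -0.09 ± 0.54 for NaCl and -0.92 ± 0.54 for MV, and for WES1 0.42 ± 0.32, -0.12 ± 0.32 and -0.24 ± 0.32. With 2 arrays a group these intervals are wide: that of GH3.3 under MV ran from -2.08 to 0.24.

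**Figure D4:**
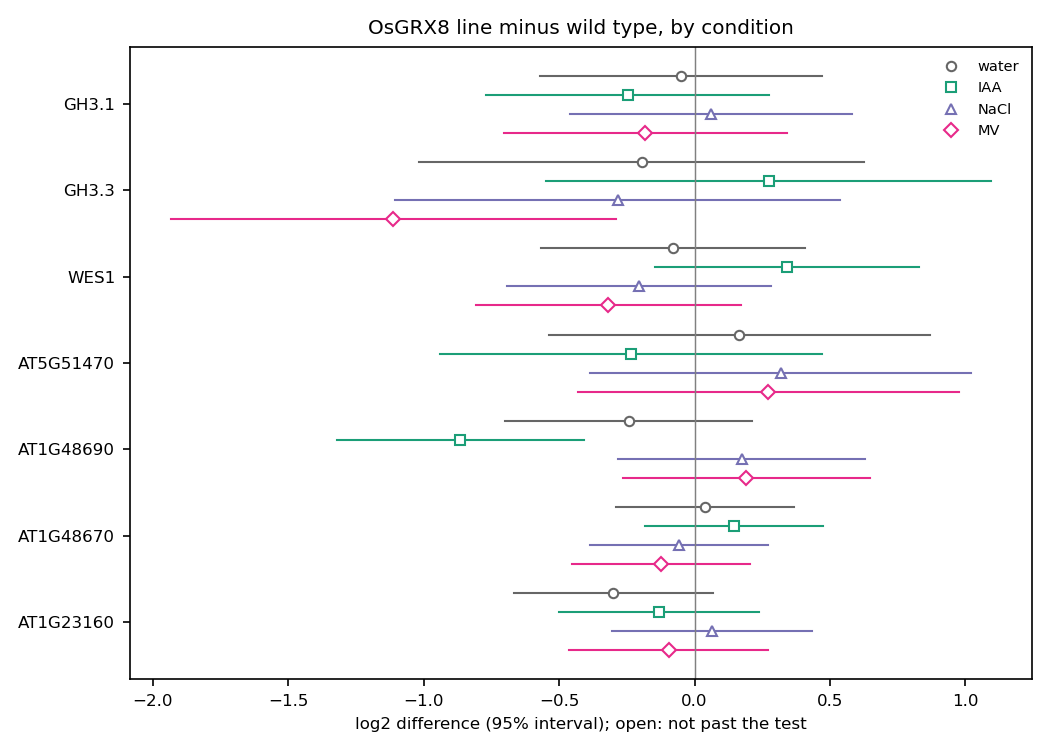
Log2 difference between the OsGRX8 line and the wild type with 95% confidence intervals (horizontal axis) for each GH3 gene in water (circles), IAA (squares), NaCl (triangles) and MV (diamonds); open symbols did not pass the test, and none is filled. The intervals, not adjusted for the number of probe sets, exclude 0 for GH3.3 under MV and AT1G48690 under IAA.

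The genes whose group means ran most like each member's were taken by Pearson r over the 8 group means, among 13512 other probe sets that name a single gene. These correlations describe the pattern; all genes are read from the same 16 arrays, and a pattern with a single high condition is easily matched. GH3.3 and WES1 were each other's nearest, at r = 0.989. For GH3.3 they were followed by the lateral root transcription factor genes LBD29 (0.975) and LBD16 (0.959), then PRP39-2 (0.959) and AT5G62750 (0.955). For WES1 the order was LBD16 (0.986), AT3G25130, LBD29 (0.969) and PRP39-2. Over both lines PRP39-2, AT5G62750 and AT3G25130 passed the test under no treatment. LBD29 stood 3.08 above water under IAA, 1.37 under NaCl and -0.03 under MV, and LBD16 stood at 1.76, 1.22 and 0.01.

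GH3.1 had a different set of nearest genes. They were AT1G64405 (r = 0.993), AT4G17350 (0.993), P1R3 (0.991), AT3G60650 (0.987) and AT3G42800 (0.987), with changes over both lines of 1.43 to 2.57 under IAA, -0.14 to 0.24 under NaCl and at most 0.14 under MV. Between GH3.1 and GH3.3 the r was 0.856. AT5G51470 followed the salt pattern, shared by 677 probe sets at r over 0.9, nearest AT1G49350 (0.993) and AT1G52100 (0.991). Its r with GH3.3 was 0.188 and with AT1G48690 -0.504. The nearest to AT1G48690 was AT3G55920 (0.984), and none of its 5 nearest genes passed the test under any treatment.

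Of 10 other GH3 genes listed, 5 were measured: GH3.17, GH3.9, AT5G13350, AT5G13380 and AT1G48660. GH3.17, whose enzyme joins IAA to glutamate, ranged from 1.93 to 4.12 and was within 1 of the trp controls on 2 of 16 arrays, and the other 4 were so on 15 or all 16. In water it read 2.58 and 2.87 on the wild type arrays and 2.19 and 3.04 on those of the OsGRX8 line, and in NaCl 3.38 and 4.12 on the wild type arrays and 3.51 and 3.92 on those of the OsGRX8 line. The NaCl arrays all lay above the water arrays, and GH3.17 rose by 1.06 ± 0.26 (adjusted p = 0.00941, limma). Under IAA it read 3.62 and 3.45 on the wild type arrays and 3.33 and 4.03 on those of the OsGRX8 line, also above all water arrays, and its change of 0.94 ± 0.26 did not pass (adjusted p = 0.186, limma). IAA minus NaCl was -0.13 ± 0.26 for it and did not pass the test (adjusted p = 0.781, limma). Its MV change was -0.37 ± 0.26, and MV minus NaCl was -1.43 ± 0.26 (adjusted p = 0.00102, limma). IAA minus MV was 1.31 and passed the test (adjusted p = 0.00721, limma), a call held under 22 of 23 alternatives. With both IAA arrays numbered 2 left out, that difference was 1.18.

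The rest of auxin metabolism was measured only in part. Of 12 genes listed for conjugate hydrolysis and inactivation 4 were measured (DAO1, DAO2, UGT84B1 and UGT74D1), and none of the listed conjugate hydrolases, such as ILR1 and IAR3, was among them. Of 11 auxin synthesis genes listed 3 were measured. Under IAA over both lines, 0 of the 4 and 0 of the 3 passed the test, where 0.620% of all probe sets did. Under NaCl 1 of the 4 inactivation genes rose and 1 fell, against 13.3% of all probe sets called higher and 12.3% lower. DAO1, a dioxygenase that oxidises IAA, rose by 0.64 ± 0.21 (adjusted p = 0.0399, limma), a call held under 15 of 24 alternatives and at 0.41 (adjusted p = 0.164) without OsGRX8 NaCl replicate 1. UGT74D1, a glucosyltransferase that acts on auxin, fell by 0.79 (SE 0.19, adjusted p = 0.00829, limma). For DAO1, IAA minus NaCl was -0.90 ± 0.21 (adjusted p = 0.00549, limma), where GH3.3 stood at 1.88; with both IAA arrays numbered 2 left out it was -0.64 and did not pass (adjusted p = 0.0715). The synthesis genes YUC2, YUC4 and YUC6 passed under none of the treatments over both lines. YUC4, YUC6 and UGT84B1 lay within 1 of the trp controls on all 16 arrays, and YUC2 on 2. Changes in genes this near the background could be missed.

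For the other acids that GH3 enzymes use, few genes were measured. Of 22 jasmonate genes listed 2 were, and ORA47, a transcription factor that activates jasmonate synthesis genes, rose by 5.57 ± 0.18 under NaCl (adjusted p = 1.83e-09, limma) and 1.65 ± 0.18 under MV (adjusted p = 0.000106), with -0.03 ± 0.18 under IAA. JMT, which methylates jasmonate, passed nowhere and lay within 1 of the trp controls on all 16 arrays. Of 20 salicylate genes listed 2 were measured: SAG101, a component of salicylate-linked immune signalling, fell by 1.60 under NaCl (SE 0.14, adjusted p = 2.68e-06, limma), and UGT76B1, a glucosyltransferase that acts on salicylate among other acids, rose by 1.28 ± 0.27 under MV (adjusted p = 0.0117, limma). The last call held under 21 of 24 alternatives and was lost without wild type water replicate 2, wild type MV replicate 1 or OsGRX8 water replicate 1 (adjusted p = 0.0549 to 0.0598).

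**Figure D5:**
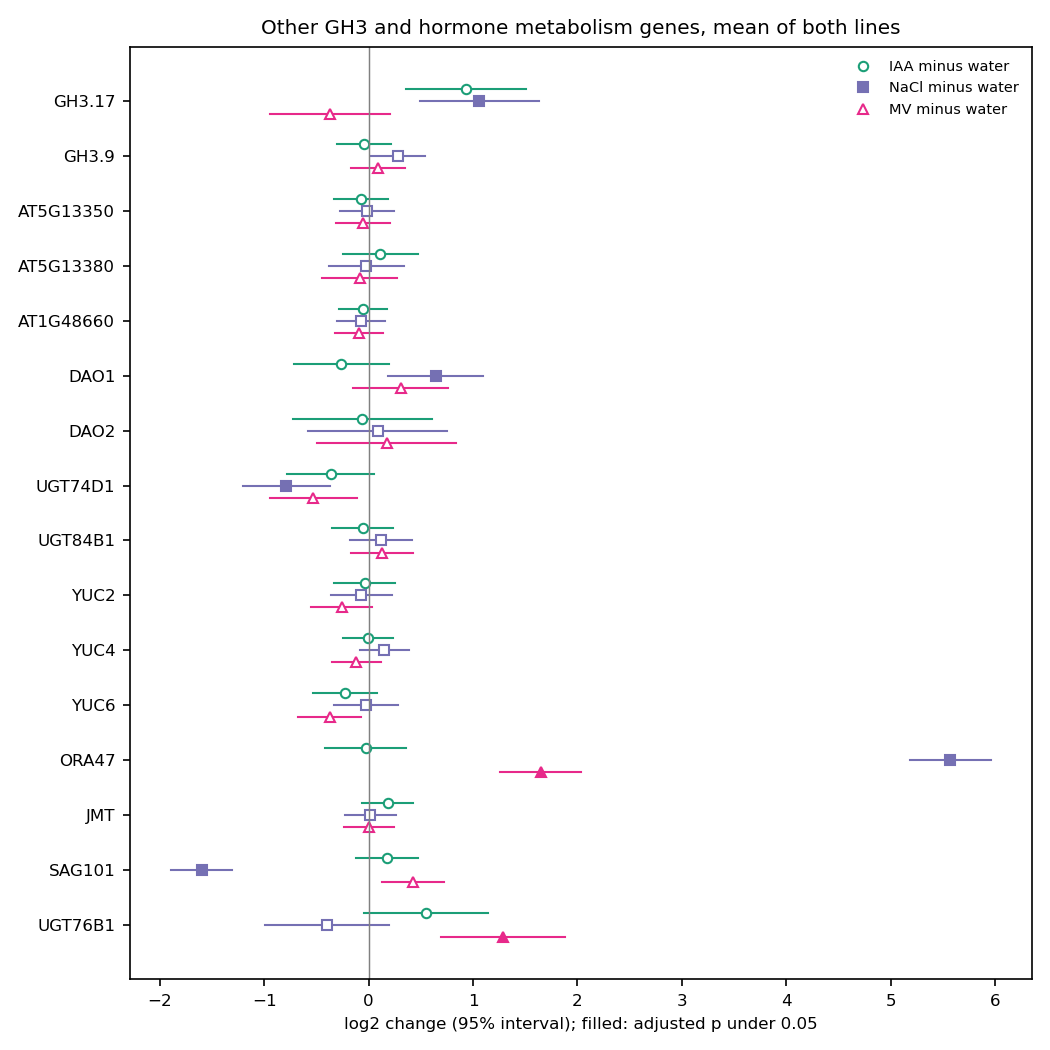
Log2 change against water over the mean of both lines with 95% confidence intervals (horizontal axis) for 5 other GH3 genes and the measured auxin inactivation, auxin synthesis, jasmonate and salicylate genes under IAA (circles), NaCl (squares) and MV (triangles); filled symbols passed the test. No circle is filled, GH3.17 and DAO1 are filled higher under NaCl and UGT74D1 lower, and ORA47 has the highest value at 5.57.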

How the data were processed

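Expression was measured on 16 arrays, and the deposited file gives log2 values per probe set, made by the authors with RMA, which corrects background, normalizes by quantiles and summarises probes, per the submitters' processing notes; the sources used here give no version. Of 22810 probe sets 64 were controls and 22746 were tested. Names came from the platform annotation (13513 probe sets with 1 gene, 503 with several, 8730 unnamed here), and loci and synonyms from RefSeq (TAIR10.1). Group means of the 8 groups were fitted per probe set with lmFit and eBayes of limma 3.58.1 (R 4.3.3, no intensity trend; residual degrees of freedom 8, prior 4.52). Each of 20 comparisons was tested two-sided and adjusted by Benjamini-Hochberg over all probe sets (threshold 0.05). The pipeline was tested on simulated data. All kept members were named, with the 5 genes most like each member called over both lines and up to 4 called genes of each list. Members and lists were chosen with earlier results of these data known. Replicate numbers were not used to pair the arrays in the main fit. Deviations correlated at -0.11 to 0.36 over 28 pairs of groups (median 0.07, 9 of them over 0.1), which does not settle whether the numbers mark pairs. Alternatives were other normalizations, a filter, an intensity trend, array weights, the compared arrays only, a replicate block and arrays left out. The number of arrays limits the precision. Sequences were not used here.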

Additional observations from a re-analysis of the deposited data

How the results depend on the processing

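Of 140 values for the 7 members over 20 comparisons, 32 passed the test, 22 of these under every alternative run, and none changed direction when called; of the 108 others 7 passed under some alternative. The counts of members past the test moved by over 1.5 times in these cases. On the compared arrays only, 0 passed for IAA in the wild type (3 with all arrays). With brighter probe sets only, which kept GH3.3 and WES1 and dropped the other 5 members, 2 passed for NaCl in the wild type, for NaCl over both lines, and for each of IAA against NaCl, IAA against MV and MV against NaCl. Leaving out each array in turn gave 2 to 4 members for NaCl in the wild type, with 2 without water replicate 1, NaCl replicate 2 or either MV array of the wild type. It gave 0 to 1 for MV in the wild type and over both lines (1 without wild type MV replicate 2) and 0 to 1 for the lines under IAA (1 without wild type IAA replicate 1).

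With the replicate number as a block, 3 members passed for IAA in the wild type, as without it, and no count of members moved by over 1.5 times. Among other genes, GH3.17 passed with the block under IAA over both lines (0.94, adjusted p = 0.0212, limma; 0.186 without) and under NaCl in the wild type (0.00913) and the OsGRX8 line (0.00552). Over all probe sets, IAA in the wild type called 47, between 0 on the compared arrays only and 3372 without wild type IAA replicate 1, and IAA over both lines called 141, between 62 and 2591 under the same settings. No member has several probe sets, so averaging them gave no value. Levels near the trp controls limit what can be said of 5 members.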
